A study of Homo sapiens with 24 samples.

Results

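Etoposide traps topoisomerase II on DNA and leaves double-strand breaks. The data described here are the mRNA response of ATRX_KO cells to it, that is, the response that remained without ATRX. The members were chosen by their labels alone. They are the 3 ATRX_KO control libraries and the 3 ATRX_KO etoposide libraries, 6 of 24 RNA-seq samples. U87-T is the human glioblastoma line U87 made to express TERT. ATRX_KO is 1 clone of it, in which ATRX was disrupted with CRISPR/Cas9 and which acquired features of ALT, telomere maintenance by recombination. The WT reference of the same series is U87-T that received the Cas9 vector without a targeting guide, again with 3 control and 3 etoposide libraries. DAXX_KO, in which DAXX was disrupted, is a further line from U87-T, with 6 libraries in a second series that also holds 6 WT libraries. A tag of the DAXX_KO libraries names ATRX, and their titles were followed. The labels call the control cells untreated, and all groups carry the TERT transgene. The dose and duration of etoposide behind these libraries are not stated in the sources used here. Since ATRX_KO is a single clone, loss of ATRX and other properties of the clone cannot be told apart. The study states that its experiments were done in biological replicates, but the labels do not say what separates the libraries of a group, so p-values measure the spread between these libraries, which may be partly technical.

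Breaks activate ATM and ATR, which stabilize p53. p53 then raises transcription of its own inhibitor MDM2, of cell cycle inhibitors such as CDKN1A, of death receptors and of DNA repair genes. Cell cycle genes fall by an indirect route, because CDKN1A keeps the RB family proteins active, and these hold E2F and DREAM complexes on cell cycle promoters in a repressive state. Promoters of genes used in mitosis commonly carry a CHR element, bound by DREAM, and CCAAT boxes, bound by NF-Y. ATRX is a chromatin remodeler that deposits histone H3.3 together with DAXX, and its loss is common in gliomas that use ALT.

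The libraries held 11352336 to 12577799 counts in ATRX_KO control, 10793903 to 12993423 in ATRX_KO etoposide and 10124817 to 13298557 in WT. The floor of detection, taken as 3 counts, was 0.217 to 0.301 CPM, which are counts scaled to library size. Floors and the exact intervals of ratios of few counts cover counting error only. Other intervals also cover the spread between libraries. ATRX mRNA was 80.6 CPM in ATRX_KO control against 192 CPM in WT control. Its response in ATRX_KO was −0.20 ± 0.091 on the log2 scale, with an adjusted p of 0.0804, which became 0.0117 without etoposide library 2. The 3′ tags need not cover the edited site, so they do not check the protein. The glioma markers VIM, at 4331 CPM in ATRX_KO control, and CD44, at 609.8 CPM, were abundant, while GFAP had 1 to 6 counts per ATRX_KO library and the stem cell factor gene SOX2 had at most 0.217 CPM in ATRX_KO against 4.07 to 4.59 CPM in WT control. Of 15 markers of other cell types, 10 were tested, and 3 (30%) rose and 2 (20%) fell in ATRX_KO, near the 24.3% and 25.2% of all tested genes. The count that fell was 1 without control library 2 or any one of the etoposide libraries. It was also 1 by a second test, DESeq2, and with all 24 libraries, library totals, at least 10 counts in every library or only the compared groups. The summed level of these markers was 421 to 428 CPM in control and 319 to 374 CPM with etoposide, most of it TUBB3, and their part in the results was not tested. CD3E did not exceed 1 count and CDH5 did not exceed 3 in any ATRX_KO library. Replicates of ATRX_KO differed more among themselves than those of WT. A chi-square statistic over genes was 6.07 to 17.1 per degree of freedom between ATRX_KO replicates and 2.47 to 8.33 between WT replicates.

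With the main scaling, etoposide changed the level of about the same number of genes in each direction in ATRX_KO cells. Of 16371 tested genes, 3985 (24.3%) were higher and 4124 (25.2%) were lower at a false discovery rate (FDR) of 0.05, or 49.5% in either direction, by the quasi-likelihood test of edgeR with Benjamini-Hochberg adjustment. An adjusted p given in the text is from this test unless DESeq2 is named, and values after ± are standard errors. Scaling by library totals alone gave 4590 higher and 3621 lower genes, so the balance depends on the scaling. Large changes were more often increases, since 1673 genes (10.2%) rose and 979 (5.98%) fell at least 2-fold, and 680 rose and 167 fell at least 4-fold. In WT, 5191 genes (31.7%) were higher and 4882 (29.8%) lower. The median size of the change over all tested genes was 0.44 on the log2 scale in ATRX_KO and 0.61 in WT. A total of 3257 genes rose in both genotypes and 3522 fell in both, while 43 rose in ATRX_KO and fell in WT, and 56 did the reverse. The difference between the responses, tested as the interaction of genotype and etoposide, passed for 2619 genes (16.0%), with 1369 (8.36%) more positive and 1250 (7.64%) more negative in ATRX_KO. In these bulk samples, fewer cells of a type and less RNA per cell cannot be told apart.

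**Figure D1:**
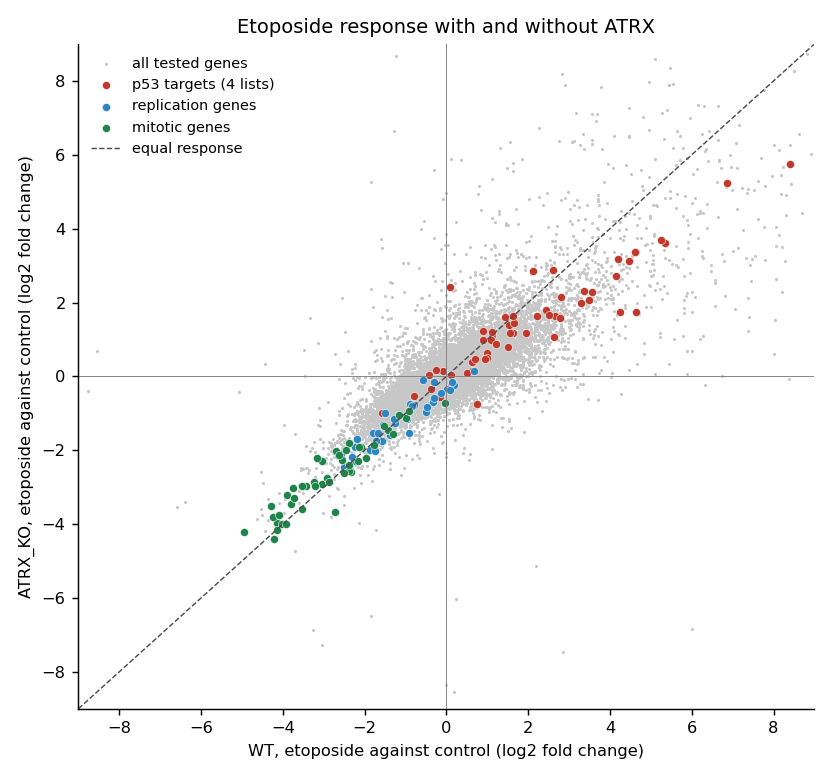
Each point is 1 of 16371 tested genes, with the log2 fold change of etoposide against control in WT on the x axis and in ATRX_KO on the y axis (20 genes lie outside the axes). Mitotic genes (green) and replication genes (blue) lie near the dashed line of equal response, whereas many p53 targets (red) lie below it on the right.

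The strongest decreases of abundant genes in ATRX_KO cells were in mitotic genes. PLK1 (chr16:23688977-23701688 in GRCh37), the kinase that drives entry into and progress through mitosis, was at 266, 313 and 295 CPM in the control libraries and 15.4, 12.4 and 13.9 CPM in the etoposide libraries. The groups did not overlap, and the log2 fold change was −4.39 ± 0.095 (SE, n = 3 against 3, adjusted p = 6.37e-15). CDC20, the activator of the anaphase-promoting complex, fell from 277, 266 and 328 CPM to 18.4, 17.2 and 11.8 CPM, a log2 fold change of −4.2 ± 0.12. BUB1, a spindle checkpoint kinase, fell by 4.15 and CDCA8, a subunit of the chromosomal passenger complex, by 4.0 on the log2 scale. TOP2A (chr17:38544777-38574148), the mitotic form of the enzyme that etoposide traps, went from 2024, 1983 and 1904 CPM to 121, 133 and 118 CPM, a log2 fold change of −3.99 ± 0.069. The other members of the 10 largest decreases were CCNA2, which encodes cyclin A2, the nuclear lamina gene LMNB1, the centromere histone chaperone HJURP, the spindle pole gene ASPM and the cytokinesis gene ANLN, with log2 fold changes from −3.98 to −3.76. The rule that chose these genes asked for etoposide libraries below all control libraries, which 26.8% of all tested genes met.

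Promoter sequences are shown for the 5 of these 10 genes that hold both a CCAAT box and a CHR within the 120 bases before the annotated start. Both elements were more frequent among genes that fell most than among all tested genes. Of the genes not shown, BUB1, TOP2A and CCNA2 held only a CCAAT box in this stretch, ANLN only a CHR and LMNB1 neither. The printed stretches are RefSeq sequences of GRCh38.p14, given 5′ to 3′ on the strand of the gene, and end at the base before the start. Capitals mark CCAAT or its reverse complement ATTGG, and the CHR letters TTTGAA or TTCGAA or their reverse complements TTCAAA or TTCGAA. In CDCA8 the CHR and a reversed CCAAT share letters.
PLK1, chr16:23678769-23678888, plus strand: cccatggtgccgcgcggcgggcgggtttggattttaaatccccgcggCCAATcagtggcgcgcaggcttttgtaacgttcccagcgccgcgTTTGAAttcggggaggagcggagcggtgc
CDC20, chr1:43358861-43358980, plus strand: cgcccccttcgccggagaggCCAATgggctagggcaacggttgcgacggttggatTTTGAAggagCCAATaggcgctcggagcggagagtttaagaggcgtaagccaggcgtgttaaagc
CDCA8, chr1:37692396-37692515, plus strand: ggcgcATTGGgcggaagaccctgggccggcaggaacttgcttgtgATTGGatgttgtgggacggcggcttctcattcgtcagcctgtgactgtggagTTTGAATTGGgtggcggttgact
HJURP, chr2:233854536-233854655, minus strand: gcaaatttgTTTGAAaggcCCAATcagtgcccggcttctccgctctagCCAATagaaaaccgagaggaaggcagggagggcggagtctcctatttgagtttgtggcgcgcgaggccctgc
ASPM, chr1:197146670-197146789, minus strand: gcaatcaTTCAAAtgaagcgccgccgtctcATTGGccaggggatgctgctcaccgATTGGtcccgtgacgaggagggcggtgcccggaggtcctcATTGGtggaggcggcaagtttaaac
In PLK1 the CCAAT box begins 73 bases and the CHR 29 bases before the start.

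The same letters were counted on both strands of 300-base promoters, from 250 bases before to 50 after the start. A promoter was found for 10481 of 12841 tested protein-coding genes (81.6%). A CHR was present in 11.9% of them, a CCAAT box in 36.5% and both in 5.0%. Among genes that fell at least 2-fold in ATRX_KO, with a promoter for 679 of 835, a CHR was present in 25.6%, a CCAAT box in 45.7% and both in 17.4%. Among those that fell at least 4-fold, 63 of 109 promoters (57.8%) held a CHR, 71 (65.1%) a CCAAT box and 50 (45.9%) both. Genes that did not pass the test held both in 3.86% of 4764 promoters. Over all 35116 promoters of the table, 16.4% held a CHR, 34.6% a CCAAT box and 6.38% both. Read the other way, the 524 tested genes with both motifs changed by a median of −0.27 on the log2 scale in ATRX_KO and −0.31 in WT, against −0.02 in each genotype for the 5938 genes with neither. Of the 524, 45.6% fell and 22.5% fell at least 2-fold in ATRX_KO. The 3298 genes with a CCAAT box alone had a median of −0.01 and the 721 with a CHR alone −0.04. The E2F letters TTTCCCGC or TTTGGCGC were in 3.54% of tested promoters and in 8.25% of those that fell at least 2-fold, and overlapped a CHR in 0 promoters. The CHR overlapped a CCAAT box in 7. Among genes that rose at least 2-fold, with a promoter for 879 of 1143, a CHR was present in 13.1%, a CCAAT box in 37.9% and both in 4.78%. Only 76.9% of the genes that rose had a promoter, against 81.3% of those that fell, so their count is less complete. A match of letters is a description and not a binding site.

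**Figure D2:**
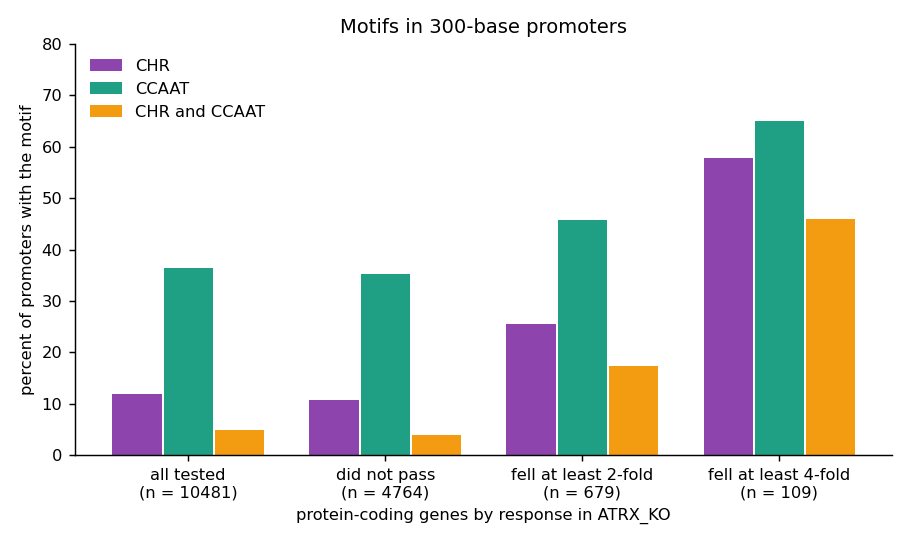
Bars give the percent of 300-base promoters that hold a CHR, a CCAAT box or both, for tested protein-coding genes grouped by their response in ATRX_KO. The share with both rises from 5.0% of all tested genes to 45.9% of those that fell at least 4-fold.

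The mitotic list was chosen from general knowledge, with earlier results of these data known. All 45 members were lower in ATRX_KO, where 25.2% of all tested genes were. Their median log2 fold change was −2.63 in ATRX_KO and −2.86 in WT, against 0.026 and 0.068 over all tested genes. The difference from WT passed for 10 members, 8 toward a smaller and 2 toward a larger decrease in ATRX_KO. It was positive for 8.36% and negative for 7.64% of all tested genes. It was positive for 39.4% of all genes that fell at least 2-fold in WT, as 42 of the 45 did. The CDC20 decrease was smaller than in WT, where the log2 fold change was −4.95, by 0.75 ± 0.17 (adjusted p = 0.00789). CDK1, the kinase partner of the mitotic cyclins, fell by 2.28 in ATRX_KO and by 3.04 in WT, a difference of 0.76 ± 0.14 (adjusted p = 0.00198). The 2 members with a larger decrease, named after their values were seen, were CCNB1, which encodes cyclin B1, and PTTG1, which encodes securin. CCNB1 was at 172, 172 and 181 CPM in ATRX_KO control and 14.9, 13.3 and 13.3 CPM with etoposide, and at 200.5, 202 and 199.6 CPM and 27.7, 32.1 and 30.8 CPM in WT. Its control level was lower in ATRX_KO by 0.20 on the log2 scale, and its etoposide levels were lower in every ATRX_KO library than in any WT library, a difference in response of −0.93 ± 0.11 (adjusted p = 4.9e-05). PTTG1 fell by 0.71 in ATRX_KO, from 507, 540.4 and 568 CPM to 401, 306 and 282 CPM, and its log2 fold change was −0.044 ± 0.10 in WT, a difference of −0.66 ± 0.14 (adjusted p = 0.00518).

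Replication and repair genes fell as well, by less. Among all tested genes, 25.2% were lower and 24.3% higher in ATRX_KO. Of 39 tested replication genes, 34 were lower and 0 were higher in ATRX_KO (0 also by DESeq2 and at an unadjusted p under 0.05), with a median log2 fold change of −1.15 against −1.26 in WT. The largest decreases were in RFC4, a subunit of the clamp loader, with −2.46 ± 0.15, and MCM3, a subunit of the replicative helicase, with −2.29 ± 0.12. Members that did not pass included GINS3, RRM2, TK1 and DTL, with log2 fold changes from −0.23 to 0.13. RRM2, the regulated subunit of ribonucleotide reductase, was at 443, 483 and 494 CPM in control and 457, 459 and 419 CPM with etoposide in ATRX_KO, so the groups were close, whereas it fell by 0.57 in WT. TK1, the salvage enzyme thymidine kinase, passed as higher in ATRX_KO without etoposide library 3 (0.29, adjusted p = 0.0168), which made the count of higher members 1. Of 26 genes of break repair by homologous recombination and the Fanconi pathway, 23 were lower and 0 higher (0 also by DESeq2 and at an unadjusted p under 0.05), with medians of −1.22 in ATRX_KO and −1.23 in WT. The helicase-like gene RAD54L fell by 2.87. XRCC3, MRE11 and RAD50 did not pass, with log2 fold changes from −0.13 to 0.023. RAD50, whose protein bridges broken ends in the MRE11 complex, was at 244, 276 and 253 CPM in ATRX_KO control and 238, 279.5 and 266 CPM with etoposide. It rose by 0.54 in WT, and the difference of −0.52 ± 0.10 passed (adjusted p = 0.00281).

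Damage signaling genes followed the same direction. Of 18 tested members, 14 were lower and 0 higher in ATRX_KO (0 also by DESeq2 and at an unadjusted p under 0.05), with a median of −0.72 against −1.05 in WT. WEE1, the kinase that holds CDK1 inactive, fell by 2.46, and CLSPN, the adaptor through which ATR activates CHEK1, by 1.53. ATM, CHEK2, TP53BP1 and USP28 did not pass, with log2 fold changes from −0.62 to −0.031. Of the genes on the drug's targets and on repair of trapped topoisomerases, 3 of 9 (33.3%) fell and 2 (22.2%) rose, shares near the 25.2% and 24.3% of all tested genes. Besides TOP2A, TOP2B, the topoisomerase II of non-dividing cells, fell from 84.2, 93.1 and 88.7 CPM to 51.5, 61.5 and 61.4 CPM, a log2 fold change of −0.61 ± 0.088. TDP1, which removes trapped topoisomerase I and other blocked 3′ ends, fell by 1.55, while TOP3B and ZNF451, which encodes a SUMO ligase for trapped topoisomerase II, rose by 0.63 and 0.35. The difference from WT passed for 0 of the 9 in edgeR, for 2 at an unadjusted p under 0.05 and for 1 in DESeq2.

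**Figure D3:**
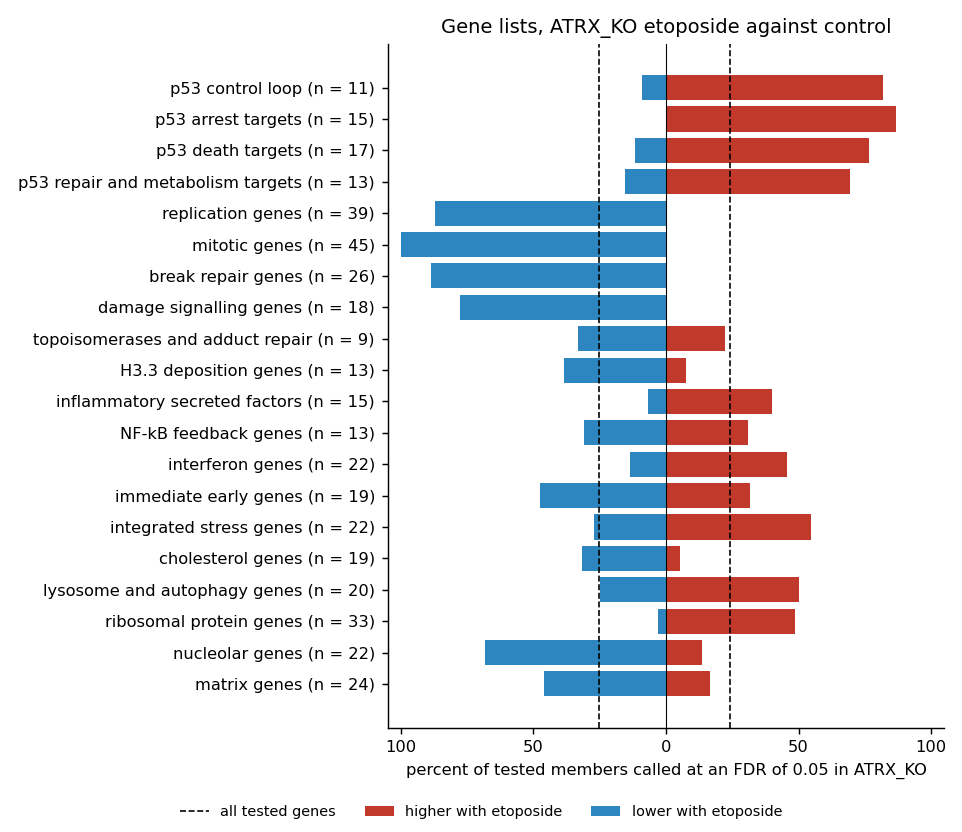
Bars show the percent of tested members of each gene list that were higher (red, right) or lower (blue, left) in ATRX_KO etoposide against control at an FDR of 0.05, and the dashed lines mark 24.3% higher and 25.2% lower over all tested genes. The 4 p53 lists reach far to the right, and the replication, mitotic, break repair and damage signaling lists to the left.

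The p53 response remained in ATRX_KO cells, and for many targets it was smaller than in WT. Of 56 tested targets in 4 lists, 44 were higher and 5 lower, where 24.3% and 25.2% of all tested genes were. The median log2 fold change was 1.32 in ATRX_KO and 1.58 in WT. The difference from WT was negative for 27 members and positive for 4, against 7.64% and 8.36% of all tested genes. Of the 56 targets, 36 rose at least 2-fold in WT. Among all 2495 genes that did so, the difference was negative for 666 (26.7%) and positive for 17, so smaller increases were not particular to p53 targets.

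In the feedback and control group, 9 of 11 members rose and 1 fell. MDM2, the ubiquitin ligase that degrades p53, went from 70.7, 69.3 and 61.5 CPM to 627, 626 and 567 CPM in ATRX_KO, a log2 fold change of 3.17 ± 0.078. It went from 48.8, 56.3 and 53.1 CPM to 955, 951 and 1005 CPM in WT, so every WT etoposide library was above every ATRX_KO one, and the difference was −1.03 ± 0.11 (adjusted p = 1.92e-05). TP53INP1, a cofactor of p53 in stress, rose by 3.61 ± 0.10 against 5.35 ± 0.12 in WT, a difference of −1.74 ± 0.16 (adjusted p = 3.42e-06). Its control level differed by 1.27 between ATRX_KO and WT, and its etoposide level by −0.46, so the higher control level made up most of the difference. COP1, a further ubiquitin ligase of p53, was the member that fell, by 0.98.

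In the arrest group, 13 of 15 members rose and 0 fell (0 also by DESeq2 and at an unadjusted p under 0.05), and the median was 2.28 in ATRX_KO against 2.12 in WT. Taken gene by gene, the difference from WT had a median of −0.38. It was negative for 7 members and positive for 2, against 7.64% and 8.36% of all tested genes. Of the 15 members, 10 rose at least 2-fold in WT, and 26.7% of all such genes had a negative difference. A member, 1 of the 15, fell when etoposide library 3 was left out. GDF15 (chr19:18485541-18499986), a secreted stress cytokine, had the largest increase of any p53 list member. Its control libraries were at 75, 88.7 and 88 CPM in ATRX_KO and 12.5, 12.7 and 12.9 CPM in WT, and its etoposide libraries at 4968, 4466 and 4184 CPM in ATRX_KO and 4368, 4160.2 and 4313 CPM in WT. The etoposide levels of the genotypes overlapped and the control levels did not. The log2 fold change was 5.76 ± 0.079 in ATRX_KO and 8.39 ± 0.091 in WT, a difference of −2.64 ± 0.12 (adjusted p = 1.09e-09), and the control level was higher in ATRX_KO by 2.72 ± 0.093. CDKN1A, the inhibitor of cyclin-dependent kinases named in the background and added after its values were seen, went from 227, 213 and 197 CPM to 2833, 2625 and 2854 CPM in ATRX_KO. It went from 157, 158 and 162 CPM to 6068, 6016 and 6064 CPM in WT, and the difference was −1.55 ± 0.094 (adjusted p = 7.48e-08). BTG2, an inhibitor of proliferation, rose from 0.261, 1 and 0.795 CPM to 28.8, 26.6 and 24.7 CPM in ATRX_KO and from 0.778, 0.594 and 0.339 CPM to 67.9, 69.9 and 67.3 CPM in WT.

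In the death group, 13 of 17 members rose and 2 fell. TP53I3, an oxidoreductase linked to reactive oxygen, rose by 3.13 ± 0.11 in ATRX_KO and by 4.47 ± 0.11 in WT, with a difference of −1.33 ± 0.16 (adjusted p = 4.72e-05). BBC3, which encodes the BH3 protein PUMA, rose by 2.73 against 4.14 in WT, and the death receptor gene FAS by 2.08 against 3.48. The decoy receptor gene TNFRSF10D had a response of 2.88 ± 0.12 in ATRX_KO and 2.62 ± 0.11 in WT, and its difference of 0.26 ± 0.16 did not pass (95% interval −0.080 to 0.60, adjusted p = 0.302). BID and BCL2L1, members of the BCL2 family with opposite roles in apoptosis, fell by 0.52 and 0.35.

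In the repair and metabolism group, 9 of 13 members rose and 2 fell, and the difference from WT was negative for 8, against 7.64% of all tested genes. It was negative for 26.7% of all genes that rose at least 2-fold in WT, as 7 of the 13 did. FDXR, a mitochondrial reductase, was at 21.5, 22.8 and 14.6 CPM in ATRX_KO control and 168, 212 and 228 CPM with etoposide, with a difference in response from WT of −1.24 ± 0.19 (adjusted p = 0.00037). DDB2, a sensor of ultraviolet damage, rose by 2.14 against 2.79 in WT. PANK1, a kinase of coenzyme A synthesis, moved the other way in the 2 genotypes. It went from 4.61, 5.52 and 5.72 CPM to 2.67, 3.03 and 3.77 CPM in ATRX_KO and from 3.58, 2.63 and 3.98 CPM to 5.92, 6.02 and 5.22 CPM in WT, a difference of −1.49 ± 0.30 (adjusted p = 0.00324). PCNA was the other member that fell, by 0.56. It did not pass without control library 3 (−0.30, adjusted p = 0.181), etoposide library 2 (adjusted p = 0.0846) or etoposide library 3 (adjusted p = 0.114). Nor did it pass in DESeq2 (adjusted p = 0.0908) or with only the compared groups in the fit (adjusted p = 0.0778). Each of these left 1 lower member.

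**Figure D4:**
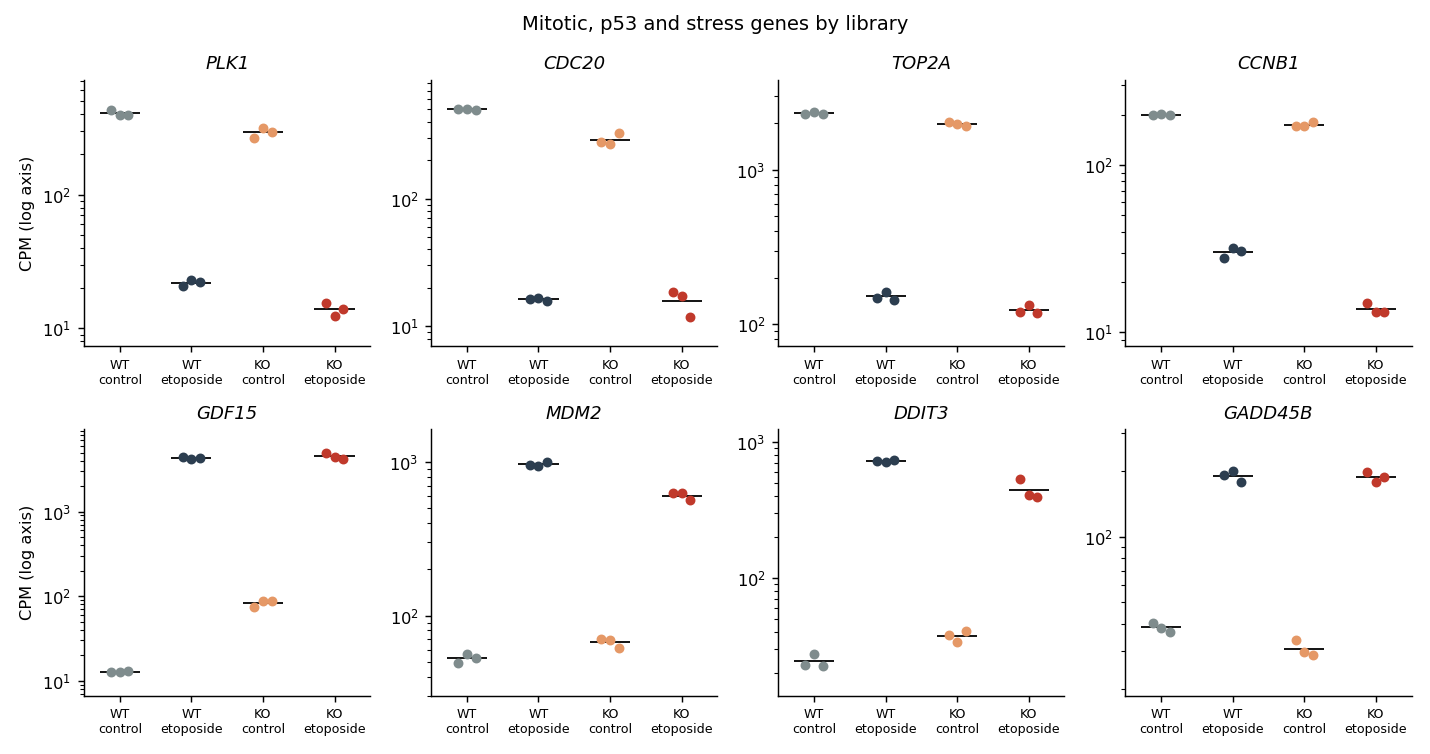
Points are the 3 libraries of each group and lines their means, in CPM on a log axis. PLK1, CDC20, TOP2A and CCNB1 fell with etoposide in both genotypes, and GDF15, MDM2, DDIT3 and GADD45B rose in both, MDM2 and DDIT3 to lower etoposide levels in ATRX_KO than in WT.

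Stress genes outside the p53 lists were called in both directions. Of 22 genes of the integrated stress and unfolded protein responses, 12 (54.5%) rose and 6 (27.3%) fell in ATRX_KO, where 24.3% and 25.2% of all tested genes did, with medians of 0.68 in ATRX_KO and 0.90 in WT. The difference from WT was negative for 9 and positive for 1, against 7.64% and 8.36% of all tested genes. Of the 22, 10 rose at least 2-fold in WT, and 26.7% of all such genes had a negative difference. DDIT3, which encodes the stress transcription factor CHOP, rose from 37.8, 33.7 and 40.4 CPM to 532, 409 and 391 CPM, a log2 fold change of 3.57 ± 0.11 against 4.91 ± 0.11 in WT and a difference of −1.33 ± 0.16 (adjusted p = 4.9e-05). Its upstream activator ATF4 rose by 1.06 against 1.85. SESN2, an inhibitor of mTORC1 signaling that is also in a p53 list, had a difference of −1.28 ± 0.10 (adjusted p = 1.33e-06). The control levels of DDIT3 and SESN2 differed by 0.63 and 0.62 between ATRX_KO and WT, and their etoposide levels by −0.71 and −0.65. The endoplasmic reticulum chaperone gene HSPA5 rose by 0.93 in ATRX_KO and by 1.00 in WT. PHGDH, the first enzyme of serine synthesis, was a member that fell in ATRX_KO, from 129, 157 and 124 CPM to 59.9, 89 and 85 CPM, and its difference from WT was −0.83 ± 0.17 (adjusted p = 0.00395). Its control level differed by 0.63 between ATRX_KO and WT, and its etoposide level by −0.21. SLC7A11, the cystine transporter, fell by 1.13 in ATRX_KO and by 1.03 in WT.

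Of 19 immediate early genes, 6 (31.6%) rose and 9 (47.4%) fell, against 24.3% and 25.2% of all tested genes. ATF3 went from 6.18, 7.78 and 9.53 CPM to 115, 127 and 127 CPM, a log2 fold change of 3.97 ± 0.12, and EGR2 rose by 2.68. MYC and FOSL1, growth-promoting transcription factors, fell by 1.67 and 1.65. Of 20 lysosome and autophagy genes, 10 rose and 5 fell. The count of lower members became 3 without control library 2 or control library 3. It was also 3 with library totals or with only the compared groups in the fit. MAP1LC3B and GABARAPL1, whose proteins coat the autophagosome membrane, rose by 1.97 ± 0.087 and 2.07 ± 0.11, and NEU1, a lysosomal sialidase, by 1.76 ± 0.088.

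Secreted and immune genes gave a mixed picture, to be read against 24.3% higher and 25.2% lower of all tested genes. Of 15 tested inflammatory factors, 6 rose and 1 fell in ATRX_KO, with 4 falling when control library 1 was left out and 3 with no filter on low counts. TNFSF9, the ligand of a T cell costimulatory receptor, rose by 2.23 ± 0.24, and IL11, a cytokine of the IL6 family, rose from 12.8, 39.1 and 43.4 CPM to 109.6, 111 and 107 CPM, with 1 control library well below the other 2. CCL2, a monocyte chemokine, was the member that fell, by 1.17. CSF1, a growth factor for macrophages named after its values were seen, rose by 0.47 ± 0.11 in ATRX_KO and by 2.64 ± 0.15 in WT, a difference of −2.17 ± 0.19 (adjusted p = 2.29e-06), and its control level was higher in ATRX_KO by 3.54. Of 13 genes of NF-κB feedback, 4 rose and 4 fell, 30.8% each way and so near the shares of all tested genes. Of 22 tested interferon genes, 10 rose and 3 fell, with medians of 0.53 in ATRX_KO and 0.83 in WT. IRF7, a transcription factor of the interferon response, rose by 2.53 ± 0.16 and the exonuclease gene ISG20 by 2.07 ± 0.30. The OAS1 and OAS3 genes, whose products make the activator of RNase L, were among the 3 that fell. OAS3 went from 30.4, 32.6 and 32.1 CPM to 18.2, 18 and 15.2 CPM in ATRX_KO, a log2 fold change of −0.89 ± 0.11, and its difference from WT was −0.75 ± 0.15 (adjusted p = 0.00361). Its control level differed by 0.74 between ATRX_KO and WT, and its etoposide level by −0.0032.

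Among 13 genes of H3.3 deposition, the pathway of ATRX itself, 5 (38.5%) fell and 1 rose in ATRX_KO, where 25.2% and 24.3% of all tested genes did, and the difference from WT was positive for 4, against 8.36% of all tested genes. Of the 13, 3 fell at least 2-fold in WT, and 39.4% of all such genes had a positive difference. The count of lower members was 3, near the share of all genes, without control library 3 or etoposide library 3. It was also 3 with only the compared groups in the fit. The count of higher members was 2 without control library 2. It was also 2 in DESeq2 and with RLE size factors, all 24 libraries, at least 10 counts in every library or library totals. DAXX was at 43.2, 45.3 and 45 CPM in ATRX_KO control and 46.2, 38.3 and 40.3 CPM with etoposide, and the groups overlapped. In WT it fell from 33.8, 38.9 and 34 CPM to 20.9, 21.8 and 19.1 CPM, a difference in response of 0.69 ± 0.14 (adjusted p = 0.00266). DEK, a chromatin protein that binds H3.3, fell by 1.56 against 2.21 in WT, and the histone chaperone gene ASF1B by 1.52 against 1.86. UBN2, a subunit of the HIRA complex, rose by 0.59.

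Ribosomal, nucleolar, sterol and matrix genes are set beside the 24.3% higher and 25.2% lower of all tested genes. Of 33 ribosomal protein genes, 16 rose and 1 fell in ATRX_KO (10 rose with only the compared groups in the fit), with medians of 0.24 in ATRX_KO and 0.41 in WT. The count of lower members was 0 without control library 2, etoposide library 1 or etoposide library 2. It was also 0 with library totals, at least 10 counts in every library or only the compared groups. RPS27L, a ribosomal protein gene that is also a p53 target, rose by 1.5 ± 0.19. Of 22 nucleolar genes, 15 fell and 3 rose. UBTF, a factor of RNA polymerase I, and DKC1, the pseudouridine synthase of the nucleolus and of telomerase, fell by 1.06 each, and the abundant nucleophosmin gene NPM1 by 0.74. RRP12, an export factor of ribosomal subunits, rose by 0.76 in ATRX_KO and by 1.74 in WT, a difference of −0.98 ± 0.13 (adjusted p = 0.000144). Of 19 tested cholesterol genes, 6 (31.6%) fell, near the share of all tested genes, and 1 rose. A second member rose without control library 2 or etoposide library 1. The same was seen with RLE size factors, library totals or at least 10 counts in every library. Of 24 tested matrix genes, 11 fell and 4 rose. COL4A1, a collagen IV chain, had 0 counts in the control libraries and 14 in the etoposide libraries together, at levels near the floor of detection. COL6A3, a collagen VI chain, fell by 1.36, and TIMP1, an inhibitor of metalloproteinases, rose from 1667, 1743 and 1669 CPM to 2913, 2974 and 3329.6 CPM while staying between 370.1 and 563 CPM in the WT libraries, a difference of 0.81 ± 0.15 (adjusted p = 0.00198). The TERT tags, which may come from the gene or the transgene, fell from 36, 22.3 and 19.7 CPM to 7.75, 5.42 and 5.81 CPM in ATRX_KO.

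Histone genes were among those with a different response, and this family of 25 tested genes was chosen after values were seen. In ATRX_KO 8 (32%) rose and 12 (48%) fell, where 24.3% and 25.2% of all tested genes did. The median was −0.25 in ATRX_KO against −1.29 in WT. The difference was positive for 11 and negative for 1, against 8.36% and 7.64% of all tested genes. Of the 25, 14 fell at least 2-fold in WT, and 39.4% of all 1984 genes that did so had a positive difference. The smaller decreases were therefore not particular to histone genes. H2BC5, an H2B gene with a polyadenylated form, went from 4.44, 4.18 and 3.26 CPM to 13.2, 14.4 and 14 CPM in ATRX_KO and from 5.68, 8.23 and 5.76 CPM to 5.36, 5.64 and 4.82 CPM in WT, a difference of 2.12 ± 0.26 (adjusted p = 5.3e-05). H4C8, an H4 gene, rose by 2.18 ± 0.28 in ATRX_KO, with a difference of 1.71 ± 0.43 (adjusted p = 0.0119). H2BC21, a further H2B gene, rose by 2.26, while the replication-dependent genes H4C3 and H1-5 fell by 1.54 and 4.72. These genes are near-identical copies, so reads may be split among them, and QuantSeq reads only their polyadenylated transcripts.

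The 10 largest increases among genes above 5 CPM with etoposide started from almost no counts. Summed over the 3 libraries of a group, SATL1 went from 1 count to 699 in ATRX_KO, a ratio of 657 with a 95% exact interval of 118 to 2.6e+04, and from 0 to 264 in WT. LCE1E, a gene of the cornified envelope of skin, went from 2 to 792 counts, a ratio of 372 (103 to 3.08e+03). INPP5D, which encodes a phosphatase of blood cells, went from 1 to 319 counts, a ratio of 300 (53.4 to 1.19e+04). NECTIN4 went from 1 to 229 counts and TACR2, a tachykinin receptor gene, from 1 to 203. IGHE, an immunoglobulin constant region, went from 0 to 296 counts, at least 30.9-fold higher against a floor of 3 counts per library. FGR, a SRC family kinase gene, rose from 0, 0.167 and 0.159 CPM to 19.5, 19.1 and 19.3 CPM, and UNC5B-AS1, an antisense transcript, from 0.174, 0.0837 and 0.0795 CPM to 16.9, 13.4 and 14.7 CPM. LCE1B went from 6 to 1037 counts in ATRX_KO and from 0 to 1568 in WT. CD300LB, a receptor gene of myeloid cells, rose from 0.261, 0.418 and 0.397 CPM to 61.3, 42.9 and 52.1 CPM in ATRX_KO and from 0.0778, 0 and 0.0847 CPM to 0.37, 0.764 and 0.602 CPM in WT. Its difference of 3.97 ± 1.05 did not pass in edgeR (adjusted p = 0.0708) and passed in DESeq2 (3.80, adjusted p = 0.0103). The LCE1 genes are close copies of each other, and the strand setting of the counting is not given in the sources used here, so antisense and overlapping genes are uncertain.

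More genes had counts with etoposide than in control. With each library thinned to 10124817 counts, 20065 to 20357 genes had a count in ATRX_KO control and 23268 to 24140 with etoposide, and in WT the ranges were 19793 to 19884 and 22664 to 22712. Long noncoding RNA genes took 2.05% to 2.10% of counts in ATRX_KO control and 3.32% to 3.48% with etoposide. Of 2020 tested long noncoding RNA genes, 28.5% rose and 5.99% fell in ATRX_KO, and of 12841 protein-coding genes 24.5% rose and 29.8% fell. Among protein-coding genes, the median log2 fold change in ATRX_KO was 0.17 for the 997 that span under 5 kb and −0.32 for the 1043 that span over 200 kb, and 0.22 and −0.34 in WT. The 6 bins of span fell in order in both genotypes. The span of a gene is also tied to its function and tissue, and its part was not tested.

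The most abundant transcripts moved moderately. BCYRN1, a short cytoplasmic RNA with many genomic copies, took 3.08% to 4.2% of counts in ATRX_KO control and 4.36% to 5.11% with etoposide, and 3.81% to 5.43% and 9.24% to 9.68% in WT. Its increase of 0.31 ± 0.11 (adjusted p = 0.0351) did not pass without control library 2, control library 3 or etoposide library 1, with adjusted p from 0.0758 to 0.158. FTH1, the ferritin heavy chain gene, rose by 0.64 ± 0.063 and the nuclear RNA MALAT1 by 0.91 ± 0.072. MT2A, a metallothionein gene, fell from 20129, 20002 and 18862 CPM to 7591, 8169 and 9977 CPM. The glycolytic gene GAPDH had a log2 fold change of 0.075 ± 0.082 (adjusted p = 0.482).

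The WT response was used to ask how much of it remained. In WT, 2495 genes rose at least 2-fold, and 1827 of them (73.2%) were also higher in ATRX_KO, 661 did not pass and 7 were lower. Their median log2 fold change was 1.78 in WT and 1.12 in ATRX_KO. Since these genes were chosen for their WT response, their WT median is favored by the choice. Genes chosen by the same rule in the separate WT libraries of the DAXX series numbered 2037, with medians of 1.70 in this WT and 1.19 in ATRX_KO, where 76.3% were higher. Of 1984 genes that fell at least 2-fold in WT, 1675 (84.4%) were lower in ATRX_KO, 298 did not pass and 11 were higher, with medians of −1.40 and −0.92. Chosen in the DAXX series, 1834 genes had medians of −1.37 and −0.95, and 83.8% were lower in ATRX_KO.

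A response was called retained where the 95% interval of its difference from WT lay within 1.5-fold either way, and lost where the interval of the ATRX_KO response itself did. A lost response can thus be a small change that still passed the test, as for ADAMTS5 below, and need not be absent. Of the 2495 increases, 100 (4.01%) were retained and 58 (2.33%) lost, and the difference passed toward a smaller response for 666 and toward a larger one for 17. Of the 1984 decreases, 310 (15.6%) were retained and 52 (2.62%) lost, and the difference passed toward a smaller response for 781 and toward a larger one for 7. Most genes were in neither class, as their intervals were too wide or the response was partly reduced. Among members of the lists that passed the 2-fold rule in WT, 20 of 42 mitotic and 11 of 20 replication decreases were retained, where 15.6% of all WT decreases were. For p53 increases it was 4 of 36, where 4.01% of all WT increases were. These shares also depend on how narrow the intervals were. The lists were not matched to all genes in level or interval width.

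Retained increases included GADD45B, a stress adaptor of the GADD45 family, which went from 33.5, 29.5 and 28.8 CPM to 199, 179 and 188 CPM in ATRX_KO and from 40.4, 38.1 and 36.7 CPM to 192, 201 and 178 CPM in WT. The groups of each condition overlapped with etoposide, and the difference was 0.31 ± 0.12 (95% interval 0.066 to 0.56, adjusted p = 0.0797 by edgeR and 0.0482 by DESeq2). SNAPC1, a factor of small nuclear RNA transcription, rose by 2.27 in ATRX_KO and 2.61 in WT, and SNHG1, a host gene of small nucleolar RNAs, by 2.22 and 2.47. IRF7, TP53TG1, a noncoding p53 target, and TP53INP2, an autophagy regulator, rose by 2.53, 2.27 and 2.19 in ATRX_KO and by 2.52, 2.31 and 2.24 in WT. The largest retained decreases were those of PLK1, BUB1, CDCA8 and TOP2A above. PLK1 had a difference of −0.19 ± 0.13 (95% interval −0.46 to 0.092) and TOP2A one of −0.063 ± 0.097 (−0.27 to 0.14). PRR11, a gene of late cell cycle phases, fell from 348, 356 and 344 CPM to 30.6, 35.7 and 30.6 CPM, with a difference of 0.17 ± 0.13 (−0.11 to 0.45).

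Of the 58 lost increases, 42 (72.4%) had a higher control level in ATRX_KO than in WT and 6 a lower one, where 30.7% and 10.1% of all 2495 WT increases did. The control libraries enter both measures, so this is a description. EREG, a ligand of the EGF receptor, was at 34.6, 31.2 and 28.7 CPM in WT control and 225, 225 and 214 CPM with etoposide, but at 106, 107 and 114 CPM and 96.2, 117 and 97.3 CPM in ATRX_KO, where the groups overlapped. Its difference was −2.88 ± 0.13 (adjusted p = 1.09e-09). HSPA12A, an atypical HSP70 gene, rose by 3.77 ± 0.66 in WT from at most 0.156 CPM, and stayed between 9.31 and 15.5 CPM in ATRX_KO, a difference of −3.61 ± 0.68 (adjusted p = 0.000241). ADAMTS5, an aggrecan-cleaving protease gene, was at 1.71, 2.04 and 2.03 CPM and 7.12, 8.79 and 8.43 CPM in WT and at 71.7, 81.7 and 82.4 CPM and 100.2, 98.8 and 96.1 CPM in ATRX_KO, where its small increase passed (0.32 ± 0.081, adjusted p = 0.00317), with a difference of −1.75 ± 0.18. HMOX1, the heme-degrading enzyme of oxidative stress, had a response of 0.27 ± 0.11 in ATRX_KO (adjusted p = 0.0607) and 1.87 ± 0.12 in WT, a difference of −1.6 ± 0.16. Its increase in ATRX_KO passed under 8 alternatives, with adjusted p from 0.00928 without control library 1 to 0.0428 with RLE size factors, and with 0.0357 in DESeq2. SERPINB2, an inhibitor of plasminogen activators, and GBP4, an interferon-inducible GTPase gene, had differences of −1.82 ± 0.23 and −1.83 ± 0.30. In the WT of the DAXX series the SERPINB2 response was 0.27 ± 0.22 (adjusted p = 0.305), against 1.79 here. All of these named genes but GBP4 had a higher control level in ATRX_KO than in WT, by 1.79 to 6.49 on the log2 scale, while the difference in control was 0.062 for GBP4 (adjusted p = 0.854).

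Of the 52 lost decreases, 23 (44.2%) had a lower control level in ATRX_KO than in WT, as did 38.3% of all 1984 WT decreases. LPAR1, a lysophosphatidic acid receptor gene, was at 39.5, 41 and 34.5 CPM in WT control and 7.21, 9.08 and 7.93 CPM with etoposide, and at 2.44, 4.02 and 2.86 CPM and 2.23, 2.67 and 3.77 CPM in ATRX_KO, a difference of 2.15 ± 0.28 (adjusted p = 0.000103). PRKCE, a protein kinase C gene, had a difference of 1.5 ± 0.21, and its control level differed by −1.69 between ATRX_KO and WT. FLOT1, a membrane raft scaffold gene, was at 41.8, 38.8 and 40.5 CPM and 33.9, 32.4 and 30.8 CPM in ATRX_KO and at 90.1, 85.2 and 80.2 CPM and 33.3, 31.7 and 30.8 CPM in WT, so the etoposide levels overlapped between the genotypes, and the difference was 1.1 ± 0.11 (adjusted p = 1.27e-05). MT1X, a metallothionein gene, was at similar control levels, 345, 301 and 315 CPM in ATRX_KO and 334, 305 and 315 CPM in WT, and fell to 249.6, 238 and 241 CPM and 133, 126 and 119.8 CPM, a difference of 0.94 ± 0.10 (adjusted p = 2.18e-05).

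A smaller set of genes responded in ATRX_KO and not, or the other way, in WT. By the rule that the ATRX_KO response and its difference from WT both passed, while WT did not pass or had the opposite sign, 298 genes were found, 139 higher and 159 lower in ATRX_KO. WT had the opposite change past the test for 43 and 56 of them. Of the 139 that rose, 91 had a lower and 12 a higher control level in ATRX_KO than in WT, with a median log2 difference of −0.75. Of the 159 that fell, 72 had a higher and 32 a lower control level, with a median of 0.20. Control libraries of ATRX_KO enter both the response and this control level, so the counts are a description.

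GPRC5C (chr17:72420990-72447792), an orphan G protein-coupled receptor gene, had the most positive difference among those with a mean of at least 5 CPM. It was at 1.91, 2.93 and 1.75 CPM in ATRX_KO control and 14.1, 11.3 and 12.7 CPM with etoposide, and at 19.9, 25.5 and 25.1 CPM and 25.6, 27.8 and 27.5 CPM in WT. All ATRX_KO libraries were below all WT libraries, and the difference in response was 2.32 ± 0.24 (adjusted p = 9.82e-06). KALRN, a guanine nucleotide exchange factor gene, went from 2.17, 3.1 and 2.7 CPM to 13.3, 12 and 14.6 CPM in ATRX_KO and from 12.9, 13 and 14.7 CPM to 15, 13.9 and 16.8 CPM in WT, so its etoposide levels overlapped, and the difference was 2.14 ± 0.22 (adjusted p = 9.82e-06). RGS4, an inhibitor of G protein signaling, fell in WT from 59.7, 61.8 and 62.6 CPM to 23.7, 18.9 and 24.8 CPM and was at 3.31, 3.1 and 4.61 CPM and 6.14, 6.14 and 3.92 CPM in ATRX_KO, a difference of 2.0 ± 0.24 (adjusted p = 5.47e-05). GPER1, an estrogen-binding receptor gene, had a difference of 1.69 ± 0.36 (adjusted p = 0.00414). The increases in ATRX_KO alone were less firm for these 2 genes. RGS4 did not pass without any one of control libraries 1 and 2 and etoposide libraries 1 and 2 (adjusted p 0.108 to 0.141), nor GPER1 without control library 3, etoposide library 2 or etoposide library 3 (0.0661 to 0.123).

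Among genes that fell in ATRX_KO, the antisense transcript INKA2-AS1 (chr1:112282201-112290420) had the most negative difference by the same rule. It was at 88.1, 114 and 89.9 CPM in ATRX_KO control and 30.7, 32.8 and 38.4 CPM with etoposide, and at 1.71, 0.934 and 1.69 CPM and 4.9, 6.4 and 5.12 CPM in WT, a difference of −3.42 ± 0.29 (adjusted p = 1.14e-06). TIMP3, an inhibitor of metalloproteinases, and ADAMTS1, a metalloproteinase gene, both fell in ATRX_KO and rose in the WT of the same series. In the WT of the DAXX series TIMP3 rose as well, by 1.25 ± 0.093 (adjusted p = 8.91e-12), but ADAMTS1 fell, with a log2 fold change of −0.49 ± 0.11 (adjusted p = 0.000298). TIMP3 went from 24, 24.9 and 24.8 CPM to 17.6, 16.8 and 12.8 CPM in ATRX_KO and from 72.6, 61.1 and 60.2 CPM to 170.3, 189 and 187 CPM in WT, a difference of −2.14 ± 0.15 (adjusted p = 4.57e-07). ADAMTS1 went from 101, 89 and 110.2 CPM to 52.9, 58 and 46.1 CPM and from 84.5, 68.8 and 63.9 CPM to 155, 160.2 and 165 CPM, a difference of −2.08 ± 0.15 (adjusted p = 5.33e-07). REEP4, which clears endoplasmic reticulum from mitotic chromosomes, went from 53.4, 55.7 and 45.2 CPM to 25.9, 25 and 22 CPM in ATRX_KO and from 48.6, 47.1 and 49 CPM to 74.5, 77.5 and 79.3 CPM in WT, a difference of −1.76 ± 0.13 (adjusted p = 5.17e-07). RTN1, a reticulon gene, and ADAMTS18 had differences of −2.05 ± 0.26 and −2.0 ± 0.41. The RTN1 decrease in ATRX_KO (−0.46, adjusted p = 0.0113) did not pass without control library 2 or etoposide library 1, with adjusted p of 0.0516 and 0.0521. In the WT of the DAXX series the responses of RTN1, 0.37 ± 0.28, and ADAMTS18, −0.70 ± 0.40, did not pass (adjusted p = 0.266 and 0.128).

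**Figure D5:**
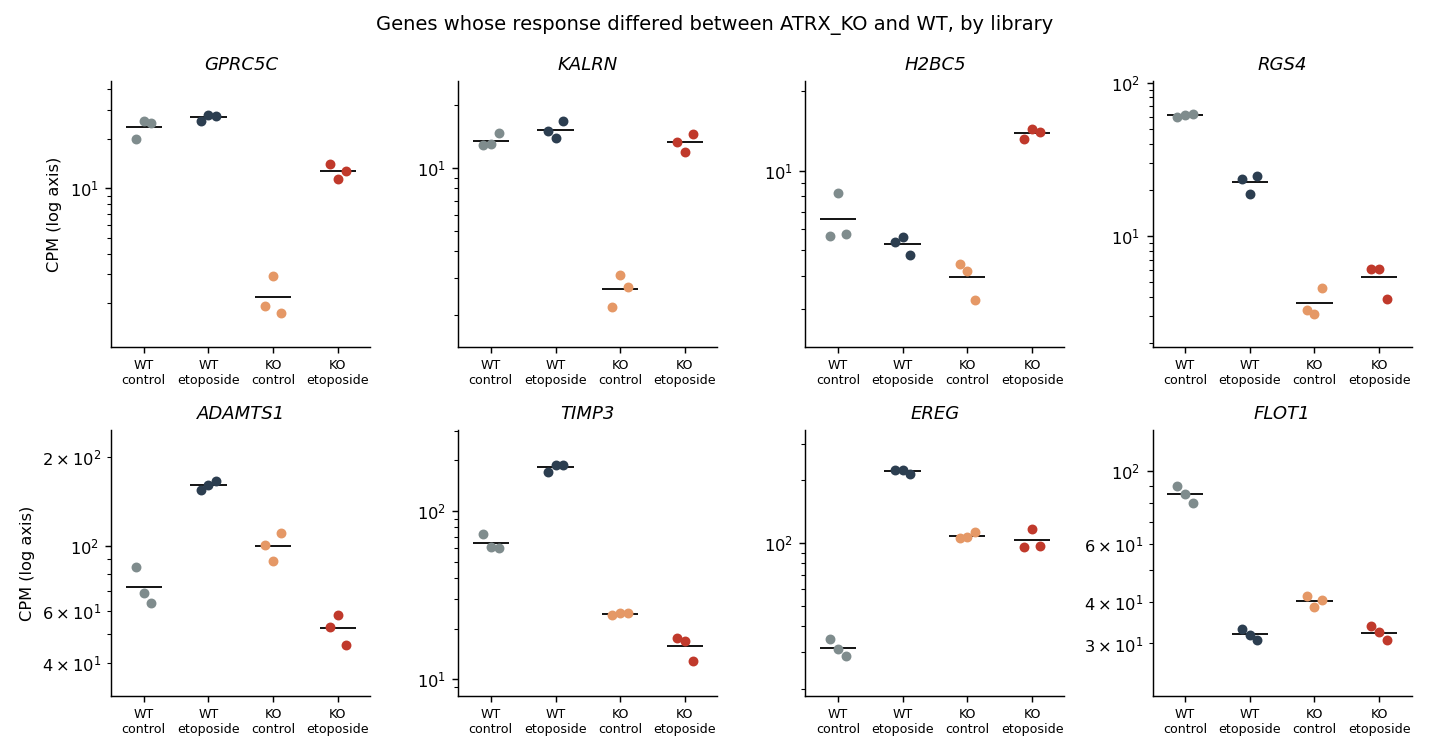
Points are the 3 libraries of each group and lines their means, in CPM on a log axis, for 8 genes whose response differed between the genotypes. GPRC5C, KALRN and H2BC5 rose in ATRX_KO, RGS4 fell in WT, ADAMTS1 and TIMP3 fell in ATRX_KO and rose in this WT (ADAMTS1 fell in the WT of the DAXX series), and EREG and FLOT1 changed more in WT than in ATRX_KO.

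The ATRX_KO response was then compared with that of DAXX_KO in a model of all 24 libraries. The lines come from separate series, each with its own WT. Of 16674 genes, 1683 (10.1%) differed, 733 (4.40%) with a more positive and 950 (5.70%) with a more negative response in ATRX_KO. The count of more positive genes was 461 without ATRX_KO control library 1, 439 without ATRX_KO control library 2, 478 without ATRX_KO etoposide library 2, 487 without DAXX_KO etoposide library 1 and 420 without DAXX_KO etoposide library 3. With scaling by library totals the split was 1658 and 437. When the WT response of its own series was subtracted from each knockout response, a contrast added after the data were seen, 500 genes (3.00%) differed, 180 (1.08%) with a more positive and 320 (1.92%) with a more negative value in ATRX_KO. The GPRC5C and KALRN responses were more positive in ATRX_KO than in DAXX_KO by 1.99 ± 0.23 (adjusted p = 1.21e-06) and 2.5 ± 0.23 (adjusted p = 3.24e-08), and by 2.48 ± 0.29 and 2.72 ± 0.30 net of WT (adjusted p = 8.08e-06 and 2.99e-06). In the WT of the DAXX series these genes rose by 0.66 and 0.37. That of RGS4, which fell by 2.52 in DAXX_KO, was more positive by 3.08 ± 0.21 (adjusted p = 2.03e-10), and by 2.64 ± 0.27 net of WT. INKA2-AS1 rose by 1.7 ± 0.23 in DAXX_KO, and its ATRX_KO response differed by −3.2 ± 0.26 (adjusted p = 1.95e-09), or by −2.45 ± 0.47 net of WT (adjusted p = 0.00384). ADAMTS1 fell by 0.67 in DAXX_KO and by 0.49 in the WT of its series. The knockouts differed by −0.26 ± 0.17, which did not pass (adjusted p = 0.383), and by −1.87 ± 0.22 net of WT, which did (adjusted p = 1.01e-05). For EREG, the DAXX_KO response was 0.37 ± 0.10 and the ATRX_KO response differed by −0.43 ± 0.14 (adjusted p = 0.0481), or by −0.98 ± 0.20 net of WT (adjusted p = 0.00481). For PLK1 and TOP2A the differences were −0.30 ± 0.14 (adjusted p = 0.175) and 0.022 ± 0.084 (adjusted p = 0.918), and neither passed, while net of WT that of PLK1 did (−0.86 ± 0.20, adjusted p = 0.0124) and that of TOP2A did not (−0.42 ± 0.12, adjusted p = 0.0526). HJURP, which fell by 4.93 in DAXX_KO, fell less in ATRX_KO, by 1.08 ± 0.19 (adjusted p = 0.000267), a difference that did not pass net of WT (0.73 ± 0.26, adjusted p = 0.124).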

How the data were processed

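RNA-seq was measured in 24 libraries, 3 per group, and the 12 libraries of the ATRX series carry the main results. Groups followed the sample titles. The authors made QuantSeq 3′ libraries, aligned reads to hg19 with STAR v2.7.0 and deposited estimated counts per gene from RSEM as whole numbers for 57736 genes. Their methods give RSEM v1.2.12 and the submitters' processing notes RSEM 1.2.3. The strand setting of counting is not given in the sources used here. GENCODE release 44 on GRCh37 gave symbols for 55501 gene IDs, holding 98.8% of counts. No mitochondrial gene was matched, and their share was not analysed here.

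Counts were scaled by TMM (factors 0.954 to 1.07) and filtered with filterByExpr (minimum count 10, minimum total 15). They were fitted in edgeR 4.0.16 (R 4.3.3) by the quasi-likelihood method with a model of 4 group means, or of 8 for the comparison with DAXX_KO. Benjamini-Hochberg adjustment ran over all tested genes, and an FDR of 0.05 was the threshold. Replicates varied with a common biological coefficient of variation of 0.106. Library totals of 10124817 to 13298557 set the precision. Every replicate pair differed by more than counting error, so none was merged. The standard error was taken from the fitted means and quasi-dispersion, in place of the planned ratio of the fold change to the root of F, which fails for fold changes near 0 at low counts. Intervals are 95%, and ratios of few counts have exact conditional intervals.

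The members and gene lists were chosen with earlier results of these data known. Named genes were ATRX, the 10 largest increases and 10 largest decreases without overlap between libraries and with a mean of at least 5 CPM, the 2 highest and 2 lowest members of each list, the 6 most positive and 6 most negative differences among genes called in ATRX_KO alone or in the opposite direction, the 6 largest retained and lost responses each way, and the 5 most abundant genes. Not all are printed. Replicate numbers of the labels did not pair the samples, as same-numbered libraries had correlations of deviations of −0.216 to 0.0409 over 18 comparisons. Alternatives were DESeq2 1.42.0, other scalings and filters, other sets of libraries, a replicate block, a stricter FDR and leaving out each library. In simulated data over 16371 genes, only 100 genes were changed 2-fold and 100 were changed 4-fold. The ATRX_KO comparison recovered 59 and 84 of them, with 10 false calls. The difference from WT recovered 51 and 75, with 9 false calls. In the real data 49.5% of genes were called in ATRX_KO, so these rates need not hold there. Figures were drawn with matplotlib 3.10.9.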

Additional observations from a re-analysis of the deposited data

Results flagged for a closer look

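Named genes whose etoposide response differed between ATRX_KO and WT by the interaction test of edgeR at an FDR of 0.05 are listed with the difference, ATRX_KO minus WT, on the log2 scale. Genes were partly chosen for this difference, so the list is a description of the values.

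Among p53 targets the difference was −2.64 for GDF15, −1.74 for TP53INP1, −1.55 for CDKN1A and −1.49 for PANK1. It was −1.33 for TP53I3, −1.28 for SESN2, −1.24 for FDXR and −1.03 for MDM2. The stress genes DDIT3 and PHGDH had −1.33 and −0.83, and the interferon gene OAS3 −0.75. All of these responses were lower in ATRX_KO. The control libraries enter each difference, and control levels were higher in ATRX_KO than in WT for genes such as GDF15, TP53INP1 and OAS3.

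Among cell cycle genes, CDC20, CDK1 and HJURP fell less in ATRX_KO, with differences of 0.75, 0.76 and 0.78. CCNB1, PTTG1 and REEP4 had −0.93, −0.66 and −1.76. The repair gene RAD50 had −0.52, the nucleolar gene RRP12 −0.98 and the H3.3 chaperone gene DAXX 0.69. The histone genes H2BC5 and H4C8 had 2.12 and 1.71.

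Increases of WT that were absent or small in ATRX_KO gave −3.61 for HSPA12A, −2.88 for EREG, −2.17 for CSF1 and −1.83 for GBP4. SERPINB2 had −1.82, ADAMTS5 −1.75 and HMOX1 −1.6. Decreases of WT that were small in ATRX_KO gave 2.15 for LPAR1, 1.5 for PRKCE, 1.1 for FLOT1 and 0.94 for MT1X.

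Genes that rose in ATRX_KO alone or against WT gave 2.32 for GPRC5C, 2.14 for KALRN, 2.0 for RGS4, 1.69 for GPER1 and 0.81 for TIMP1. Genes that fell in ATRX_KO alone or against WT gave −3.42 for INKA2-AS1, −2.14 for TIMP3, −2.08 for ADAMTS1, −2.05 for RTN1 and −2.0 for ADAMTS18.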

How the results depend on the processing

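The counts of genes higher and lower in ATRX_KO stayed within 1.5 times of 3985 and 4124 under all alternatives run, from 2925 to 4590 and from 3301 to 4363, both lowest at an FDR of 0.01. With only the 2 compared groups in the fit they were 3471 and 3617. The share of calls that were increases was 49.1%, and 55.9% with library totals. Retained increases and decreases ranged from 78 to 136 and from 247 to 353, and lost ones from 40 to 64 and from 37 to 70. The planned interval formula, run as an alternative after the data were seen, moved none of these 4 counts by over 1.5 times. The difference from WT was called for 564 more positive and 597 more negative genes at an FDR of 0.01. The difference from DAXX_KO gave 320 and 484 at that FDR, 1658 and 437 with library totals and, added after the data were seen, 180 and 320 with the WT response of its own series subtracted from each, and its more positive count ranged from 420 to 900 when 1 library was left out. Samples that share a replicate number were not pairs. A replicate block gave 3837 higher and 4023 lower genes in ATRX_KO and 1150 and 1096 for the difference from WT, without moving any of these counts by over 1.5 times. Named responses in ATRX_KO close to 0 changed sign, and the cause was not tested. With at least 10 counts in every library the log2 fold change was 0.0309 for ATM, 0.0549 for GBP4 and 0.0249 for SERPINB2. With library totals it was 0.0421 for ATM, 0.00553 for EREG, 0.0671 for GBP4 and 0.0343 for SERPINB2. GBP4 had 0.0107 with DESeq2, 0.0133 with RLE size factors, 0.00443 with all 24 libraries and 0.00453 with only the compared groups, and without a filter RAD50 had −0.0143 and XRCC3 −0.0126. With 1 library left out, ATM ranged from −0.119 to 0.0901, GAPDH from −0.0573 to 0.138, GBP4 from −0.143 to 0.0726 and HSPA12A from −0.0622 to 0.294. LPAR1 ranged from −0.337 to 0.127, RAD50 from −0.0323 to 0.0795, SERPINB2 from −0.227 to 0.0772, TK1 from −0.0347 to 0.293 and XRCC3 from −0.102 to 0.138, and the difference of TOP2A from WT ranged from −0.113 to 0.00746. Over all named ATRX_KO responses and alternatives, 3037 values kept direction and call, 24 lost the call, 12 gained it and 30 changed sign. At these depths, levels under 0.217 to 0.301 CPM could not be told from 0.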
